A study of Mus musculus and Sus scrofa with 30 samples.

Results

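Matrix metalloproteinases (MMPs) are the zinc-dependent enzymes that cut collagens and other proteins outside the cell, and the tissue inhibitors of metalloproteinases (TIMPs) block them. The 10 genes described here are Mmp2, Mmp3, Mmp9, Mmp11, Mmp13, Mmp14, Mmp19, Timp1, Timp2 and Timp3. They were taken by symbol, ignoring case, from the mouse and the pig expression table. Among 24843 mouse genes all 10 were found, and all 10 passed a minimum mean of 10 normalized counts that left 15723 genes. The pig table held 9 of them among 34307 rows, none being named TIMP2. Of 14819 pig genes that passed the same minimum 6 were members: MMP2, MMP11, MMP14, MMP19, TIMP1 and TIMP3. The rule itself uses symbols and has no threshold, but the genes were selected on earlier results of these libraries, with fold changes against vehicle in view, among them those of Mmp3 and Mmp9 in mouse cells. The calls below therefore describe the genes and are not independent evidence.

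The libraries come from mouse 3T3-L1 cells and from porcine dedifferentiated fat (DFAT) cells, taken on day 5 of adipogenic differentiation. 3T3-L1 is an established embryonic fibroblast line that can turn into fat cells, and DFAT cells are adipocytes of subcutaneous fat that have reverted to a fibroblast-like state. Each system has 5 groups of 3 libraries: vehicle (DMSO), dicoumarol, magnolol, dicoumarol with magnolol (the combination) and rosiglitazone. Rosiglitazone activates PPARG, the master regulator of fat cell formation; dicoumarol is an anticoagulant that also blocks the quinone reductase NQO1, and magnolol is a phenol from magnolia bark. All groups of a system received its induction mix. For 3T3-L1 this was insulin at 0.75 µg/mL, dexamethasone at 75 nM and IBMX at 37.5 µM with 10% serum. For DFAT it was dexamethasone at 0.5 µM, IBMX at 12.5 µM, biotin at 20 µM and calcium-D-pantothenate at 10 µM with 2% serum. The sources used here give neither the doses of the tested compounds nor whether replicates were separate cultures or animals, so p-values measure the spread between these libraries, which may be technical.

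Most MMPs are secreted as inactive proenzymes and are switched on by removal of a propeptide, by plasmin, by other MMPs or inside the cell by furin. Mmp14 (MT1-MMP) is anchored in the plasma membrane, cuts fibrillar collagen and, with Timp2 as a bridge, activates the gelatinase Mmp2. Fat cell formation is accompanied by a change from a fibrillar collagen network towards a basement membrane, and loss of Mmp14 is known to impair fat tissue growth in mice. Transcription of several secreted MMPs is controlled through AP-1 elements, the binding sites of Fos and Jun proteins, close to the start site.

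Estimated depth, in M (mega) reads, ran from 22.8 to 30.7 for 3T3-L1 and from 44.8 to 70.5 for DFAT. The 3T3-L1 rosiglitazone libraries stood apart in composition: mitochondrial genes took 14.3%, 7.66% and 11.6% of their counts (replicates 1 to 3) against 5.22% to 7.00% with vehicle, and the 10 most abundant genes took 14.0%, 8.93% and 11.3% against 6.72% to 8.90%. Leaving out any 1 of these 3 libraries left 9 members called with rosiglitazone. All 8 adipocyte markers tested in 3T3-L1 rose with rosiglitazone, and so did 8 of 9 in DFAT cells. The summed adipocyte markers ran from 44205 to 62114 normalized counts with vehicle and from 321411 to 565845 with rosiglitazone in 3T3-L1, and in DFAT cells from 18496 to 21430 and from 76458 to 83530. Fibroblast and preadipocyte markers were all tested in 3T3-L1 and summed to 237081 to 262258 with vehicle and 138390 to 180096 with rosiglitazone. In DFAT cells the sum of these markers was 1581910 to 1734160 with vehicle, 2218800 to 2315940 with dicoumarol, 2529970 to 2898120 with magnolol, 2521490 to 2997210 with the combination and 1233590 to 1371930 with rosiglitazone. Of 8 names 6 had a row and 5 were tested there, since Dlk1, a preadipocyte marker, was below the minimum. The markers did not move together: 1 was called higher and 1 lower with dicoumarol, 2 and 1 with magnolol, 2 and 1 with the combination and 0 and 1 with rosiglitazone. Macrophage and leukocyte markers, which matter because leukocytes make Mmp9, summed to 248 to 286 with vehicle and 129 to 178 with rosiglitazone in 3T3-L1. Of 8 listed markers 5 had a row there and 3 passed the minimum. Of these 3, rosiglitazone lowered 1, Cd14, and the log2 fold changes ran from -1.32 to 0.67, so the markers did not move together. None of the 5 endothelial markers passed in 3T3-L1. In bulk RNA, fewer cells of a type and less RNA per cell cannot be told apart, and this holds for every gene below. The part of these marker and composition changes in the results was not tested.

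In 3T3-L1 cells most members fell with rosiglitazone and fewer with the other treatments. By limma's moderated test over all genes, rosiglitazone lowered 9 of 10 members (all but Mmp19), where 19.9% of all genes tested were called lower and 40.1% were called in either direction. The combination lowered 5 members, Mmp3, Mmp9, Mmp11, Mmp14 and Timp1, against 1.36% of all genes called lower and 5.22% called. Magnolol lowered 1 member, Mmp3, against 0.153% called lower and 1.23% called. Dicoumarol called 0 members and 0% of all genes by limma, while 2 members and 393 of all genes had an unadjusted p under the threshold of 0.05. The median log2 fold change of the 10 members was -0.20 for dicoumarol, -0.42 for magnolol, -0.57 for the combination and -1.22 for rosiglitazone, beside medians of all genes of 0.00, 0.00, -0.01 and 0.00. Mmp19 alone lay above 0 in each of these comparisons. All 3 libraries of the treatment lay below all 3 of vehicle for 4 members for dicoumarol, 6 each for magnolol and the combination and 9 for rosiglitazone. Of all genes tested 5.83%, 15.4%, 21% and 45.6% had groups that did not overlap, in either direction. Nothing is read from these shares, since results of these contrasts were known when the genes were listed.

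Replicate numbers carried weight in 3T3-L1: libraries of different groups with the same number deviated together in 30 of 30 pairs, and adding that number to the model as a block brought more calls. With the block, magnolol lowered 4 members (Mmp3, and also Timp1, Mmp9 and Timp3) where 1.44% of all genes were called lower. The combination lowered 7, those called without the block and also Timp2 and Timp3, where 5.48% of all genes were called lower. No member call made in 3T3-L1 without the block was lost with it. Values with the block are given below only for members whose call changed.

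**Figure D1:**
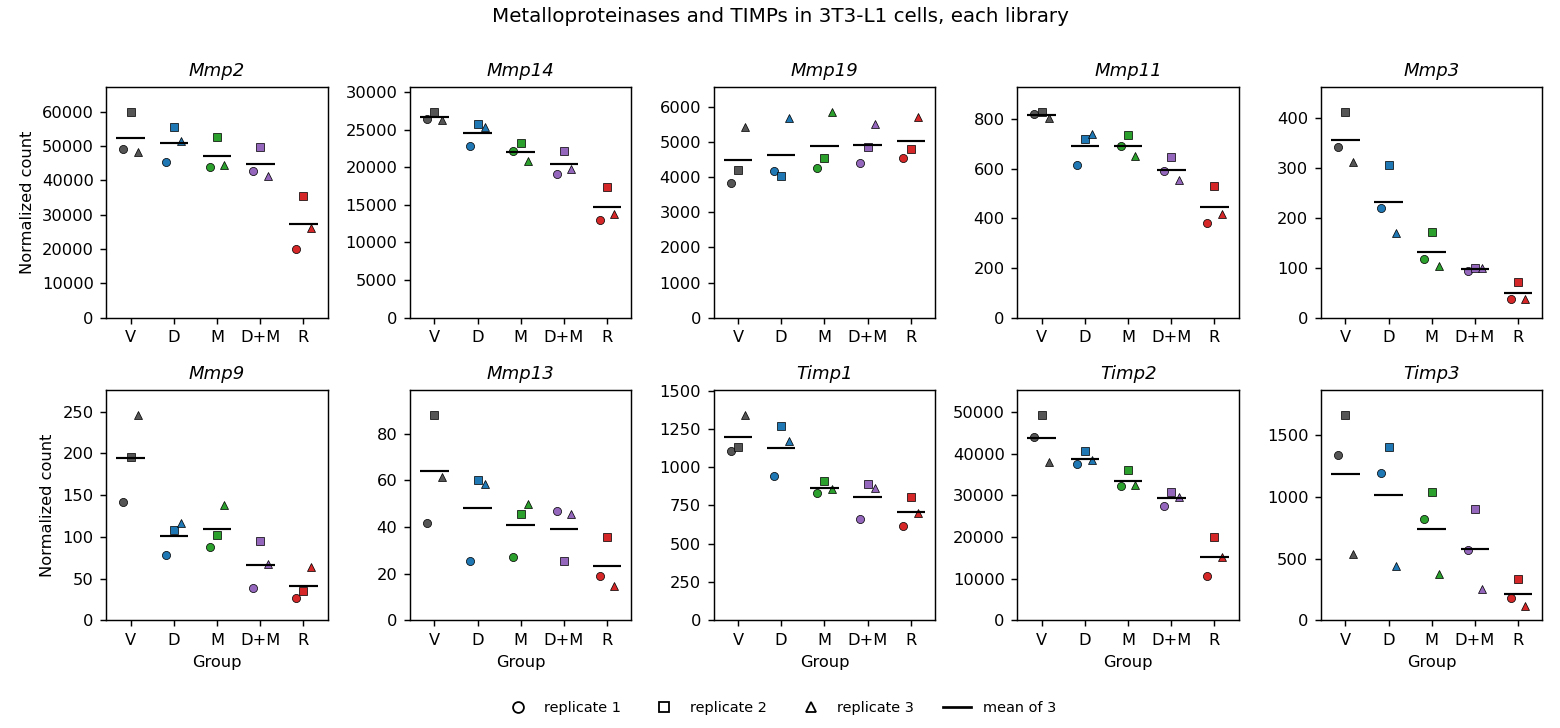
Normalized counts (y axis, from 0) of the 10 members in each of the 15 3T3-L1 libraries, by group: vehicle (V), dicoumarol (D), magnolol (M), combination (D+M) and rosiglitazone (R). Symbols mark replicates 1 to 3 and bars the mean of 3; for Mmp19 all treated groups overlap with vehicle, and Timp3 has replicate 3 lowest in all 5 groups.

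Mmp3 (stromelysin-1, ENSMUSG00000043613) cuts proteoglycans, laminin and basement membrane collagen and activates other proMMPs. Mmp13 (collagenase-3, ENSMUSG00000050578) cuts fibrillar collagen and is the main interstitial collagenase of rodents. Both sit on the plus strand of chromosome 9, Mmp13 at 7272514 to 7283331 and Mmp3 at 7445822 to 7455975, in a run of 6 MMP genes that also holds Mmp1a, Mmp10, Mmp8 and Mmp27. Of those 6, 4 passed the minimum, and Mmp1a and Mmp10 reached at most 2.65 and 4.28 normalized counts. The bases just before the starts of Mmp13 and Mmp3 are shown. Among the members with a matched promoter, only these held a consensus AP-1 element in the window searched. Mmp2, Mmp9 and Mmp19 had no matched promoter and were not searched. RefSeq sequences (GRCm38.p6, 250 bases up to the start site, plus strand, 5′ to 3′) were matched for 7 of the 10 members. The AP-1 element is in capitals.

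Mmp13, chr9:7272264-7272513: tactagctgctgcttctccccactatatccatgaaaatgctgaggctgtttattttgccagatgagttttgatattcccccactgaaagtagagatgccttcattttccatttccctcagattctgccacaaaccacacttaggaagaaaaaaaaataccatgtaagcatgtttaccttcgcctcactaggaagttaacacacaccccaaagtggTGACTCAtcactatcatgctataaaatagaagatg

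Mmp3, chr9:7445572-7445821: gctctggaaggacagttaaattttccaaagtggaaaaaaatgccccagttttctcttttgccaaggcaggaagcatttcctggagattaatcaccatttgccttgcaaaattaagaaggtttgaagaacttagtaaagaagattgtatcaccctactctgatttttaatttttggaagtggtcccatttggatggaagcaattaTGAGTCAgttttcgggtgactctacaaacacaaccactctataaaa

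The element TGACTCA, or TGAGTCA on the other strand, was found in these 2 of 7 member promoters and in 4.46% of 32851 mouse promoters of the same length. It lies 35 bases before the start of Mmp13 and 46 bases before that of Mmp3. TATAAA, searched on both strands, was found in the same 2 promoters, 16 and 7 bases before the start, and in 12.4% of all promoters. The other 5, Mmp11, Mmp14, Timp1, Timp2 and Timp3, had no TATAAA and carried the GC box GGGCGG on either strand, which 32.7% of promoters hold. A direct repeat of AGGTCA spaced by 1 base, the kind of element PPARG binds with RXR, was in none of the 7 windows and in 0.0335% of promoters. No AP-1 element shared bases with a TATAAA. These matches describe letters in a short window only.

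Mmp3 had the largest log2 fold change of the members with rosiglitazone. Its normalized counts in replicates 1, 2 and 3 were 342, 412 and 310.4 with vehicle, 218, 305 and 169.7 with dicoumarol, 117, 171 and 103.7 with magnolol, 92.3, 100.2 and 98.3 with the combination and 36.7, 71.8 and 37.0 with rosiglitazone. No library of the magnolol, combination or rosiglitazone groups reached a vehicle library, and the dicoumarol libraries also stayed below all 3. The log2 fold change, on the log2(value + 1) scale used throughout, was -2.91 (SE 0.26, limma adjusted p = 8.1e-07) with rosiglitazone, which is 7.50-fold lower. It was -1.85 with the combination (adjusted p = 0.00095) and -1.46 with magnolol (adjusted p = 0.012). The magnolol call was lost without vehicle replicate 2 (adjusted p = 0.060), magnolol replicate 1 (0.079) or magnolol replicate 3 (0.075). With dicoumarol the value was -0.65 and was not called (adjusted p = 1).

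Mmp13 was the scarcest member in 3T3-L1. Vehicle libraries held 41.9, 88.2 and 61.6 normalized counts and rosiglitazone libraries 18.9, 35.9 and 14.8, so the groups did not overlap. The other 3 groups lay between 25.5 and 60.0 and overlapped with vehicle. Rosiglitazone lowered it by a log2 fold change of -1.46 (SE 0.40, limma adjusted p = 0.0088), and leaving out vehicle replicate 2 ended the call (adjusted p = 0.051). Counts this low limit the precision of the Mmp13 values.

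Mmp2 (gelatinase A, chromosome 8, 93553919 to 93580048, plus strand) and Mmp9 (gelatinase B, chromosome 2, 164782700 to 164797770, plus strand) cut denatured collagen and type IV collagen of basement membranes. Mmp2 was among the 132 most abundant transcripts of every 3T3-L1 library. Its normalized counts were 49084, 60022 and 48188 with vehicle, 45417, 55490 and 51401 with dicoumarol, 43940, 52760 and 44560 with magnolol, 42823, 49722 and 41408 with the combination and 20022, 35322 and 26101 with rosiglitazone. The rosiglitazone libraries lay below all others, whereas the groups given dicoumarol, magnolol or both overlapped with vehicle. Rosiglitazone lowered Mmp2 by a log2 fold change of -0.98 (SE 0.17, limma adjusted p = 0.00028). With the combination the value was -0.23 (95% interval -0.59 to 0.13), which was not called.

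Mmp9, by contrast, was at 142, 195 and 246 normalized counts with vehicle and at 26.2, 34.8 and 64.2 with rosiglitazone. The combination libraries held 38.5, 94.5 and 67.5, the dicoumarol libraries 77.7, 109 and 116, and the magnolol libraries 88.3, 102 and 138. All 12 libraries of the 4 treatments lay below the lowest vehicle library. Mmp9 fell with rosiglitazone (log2 fold change -2.26, SE 0.34, limma adjusted p = 9e-05) and with the combination (-1.58, adjusted p = 0.012), the latter call lost without vehicle replicate 3 (0.062) or combination replicate 1 (0.089). With magnolol the value was -0.81, not called (adjusted p = 0.40) unless the replicate block was used (0.032). Replicate 1 was the lowest of the 3 in all 5 groups, and the sum of the macrophage and leukocyte markers, given above, was mostly Cd14. Of the 3 such markers tested with rosiglitazone, Cd14 fell (-1.32), while Csf1r (-0.50) and Cd68 (0.67), a lysosomal protein of macrophages, were not called, nor was the neutrophil marker S100a8 (0.47). Csf1r, the receptor for a macrophage growth factor, lay between 4.42 and 25.5 normalized counts over all 15 libraries, and Itgam, an integrin of myeloid cells, reached at most 1.95.

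Mmp14, the membrane-type MMP that activates proMmp2 (ENSMUSG00000000957, chromosome 14, 54669069 to 54682821, plus strand), was at 26366, 27364 and 26267 normalized counts with vehicle, 22749, 25706 and 25350 with dicoumarol, 22185, 23176 and 20764 with magnolol, 19138, 22206 and 19800 with the combination and 12989, 17326 and 13804 with rosiglitazone. Every treated library lay below every vehicle library. The fall was called with rosiglitazone (log2 fold change -0.87, SE 0.11, limma adjusted p = 1.5e-05) and, at the edge of the threshold, with the combination (-0.39, adjusted p = 0.047). The combination call for Mmp14 was lost without any 1 of the 3 vehicle libraries or without combination replicate 1 or 3 (adjusted p from 0.098 to 0.21), with quantile normalization (0.096), without a filter on low genes (0.083), without a variance trend (0.068) and with only the compared groups in the fit (0.060). Dicoumarol (-0.12) and magnolol (-0.28) gave values that were not called.

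Mmp11 (stromelysin-3, chromosome 10, 75759056 to 75772330, minus strand) is an MMP activated inside the cell by furin that cuts collagen VI, a component of the coat around fat cells. Its vehicle libraries agreed closely, at 820, 829 and 802 normalized counts, and the rosiglitazone libraries held 382, 532 and 417. The groups given dicoumarol, magnolol and both ranged from 614 to 738, from 652 to 735 and from 553 to 647, all below vehicle without overlap. Rosiglitazone lowered Mmp11 (log2 fold change -0.89, SE 0.12, limma adjusted p = 2.7e-05), and the combination did so at -0.46 (adjusted p = 0.034). The latter call was lost without any 1 of the vehicle libraries or without combination replicate 1 or 3 (adjusted p from 0.077 to 0.14), and without a variance trend (0.057).

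Mmp19 (chromosome 10, 128626779 to 128636693, plus strand), a secreted MMP that cuts basement membrane proteins, was the exception in 3T3-L1. Vehicle libraries held 3840.4, 4218 and 5440 normalized counts and rosiglitazone libraries 4547, 4814 and 5735, so the groups overlapped. The log2 fold changes ran from 0.04 with dicoumarol to 0.17 with rosiglitazone (95% interval -0.17 to 0.51), and none was called. Replicate 3 was the highest in all 5 groups, and with the replicate block the rosiglitazone value for Mmp19 was called (adjusted p = 0.046), where 24.4% of all genes were called higher. Mmp19 overlaps Tmem198b on the other strand, which averaged 742 normalized counts against 4799.7 for Mmp19. The libraries mark strand, but no source used here says whether the counting did.

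**Figure D2:**
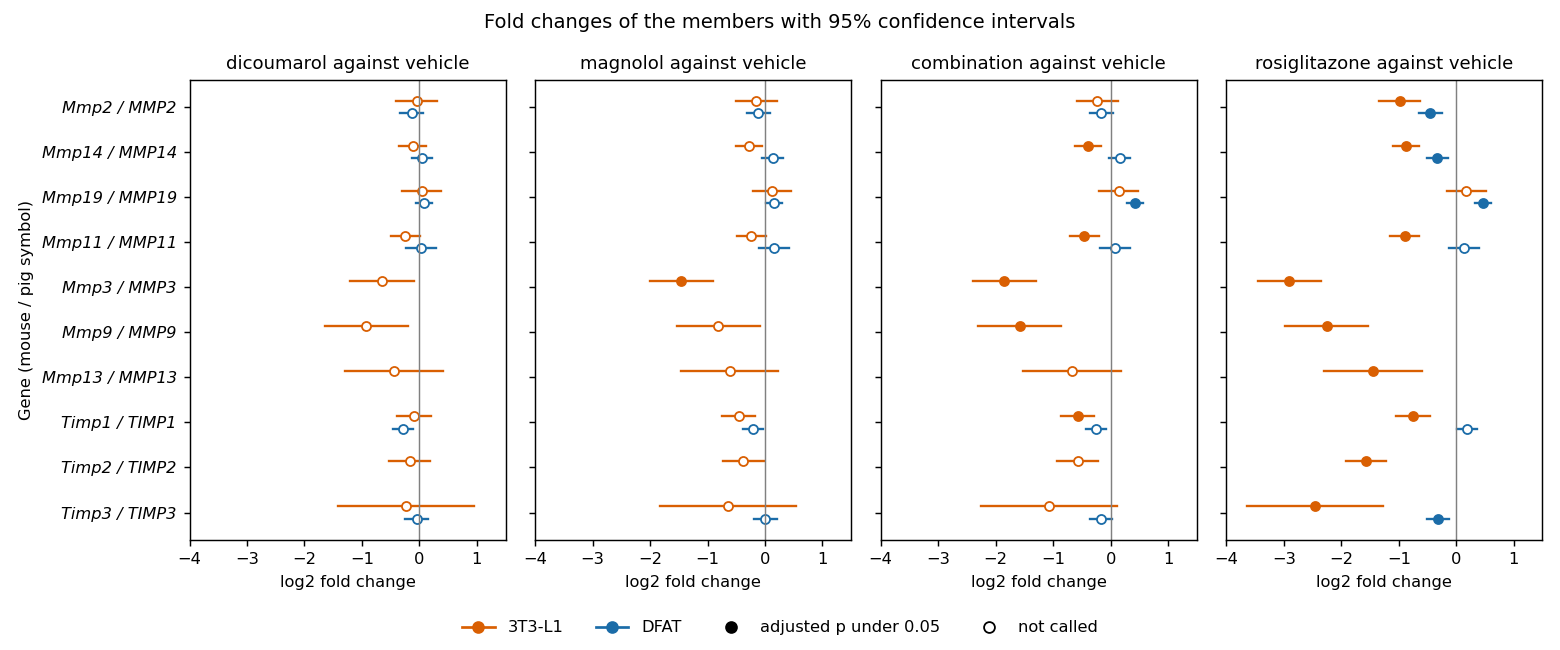
log2 fold changes against vehicle (x axis) of the members tested, with 95% confidence intervals, in 3T3-L1 (orange) and DFAT cells (blue); filled points have an adjusted p under 0.05. With rosiglitazone 9 of 10 mouse values are filled and negative, whereas the pig values lie between -0.45 and 0.46.

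The 3 inhibitors also fell in 3T3-L1 cells. Timp2 (chromosome 11, 118191895 to 118246566, minus strand), which both inhibits MMPs and takes part in the activation of proMmp2 by Mmp14, was at 44100, 49398 and 38067 normalized counts with vehicle, 37450, 40593 and 38400 with dicoumarol, 32160, 36040 and 32433 with magnolol, 27487, 30758 and 29683 with the combination and 10566, 19908 and 15094 with rosiglitazone. Only the dicoumarol libraries overlapped with vehicle. Rosiglitazone lowered Timp2 2.97-fold (log2 fold change -1.57, SE 0.17, limma adjusted p = 3.8e-06). With the combination the value was -0.57, with an adjusted p of 0.059 in the fit without a block and 0.0067 with it.

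Timp3 (chromosome 10, 86136236 to 86185370, plus strand) is the TIMP that binds to the extracellular matrix and also inhibits ADAM and ADAMTS proteases. It was at 1340, 1664 and 535 normalized counts with vehicle, 1194, 1403 and 439 with dicoumarol, 817, 1036 and 374 with magnolol, 572, 899 and 251 with the combination and 182, 338 and 115 with rosiglitazone. Replicate 3 was the lowest and replicate 2 the highest in all 5 groups, and 4.25% of all genes tested had replicate 3 lowest in all groups. Timp3 fell 5.50-fold with rosiglitazone (log2 fold change -2.46, SE 0.56, limma adjusted p = 0.0024). The combination (-1.07) and magnolol (-0.64) were not called without the block (adjusted p = 0.36 and 0.81) and were called with it (2.4e-05 and 0.0050). Within each replicate number the order was the same, vehicle above dicoumarol above magnolol above the combination above rosiglitazone.

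Timp1 (chromosome X, 20736405 to 20740974, plus strand), an inducible inhibitor that binds proMmp9, was at 1105, 1133 and 1344 normalized counts with vehicle, 942, 1269 and 1169 with dicoumarol, 832, 908 and 855 with magnolol, 663, 890.1 and 865 with the combination and 615, 807 and 701 with rosiglitazone. The last 3 groups lay below vehicle without overlap. Timp1 fell with rosiglitazone (log2 fold change -0.76, SE 0.14, limma adjusted p = 0.00044) and with the combination (-0.57, adjusted p = 0.023), the latter call lost without vehicle replicate 3 (0.10), combination replicate 1 (0.16) or a variance trend (0.052). With magnolol the value was -0.46 (adjusted p = 0.16, or 0.0064 with the replicate block). Timp1 lies within Syn1 and Timp3 within Syn3, both on the opposite strand, and Syn1 and Syn3 averaged 21.4 and 1.83 normalized counts.

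Divided by exonic length, the members spanned a wide range in vehicle-treated 3T3-L1 cells. Normalized counts per kilobase were 15554 ± 1955 for Mmp2, 11256 ± 1455 for Timp2 and 4474 ± 102 for Mmp14 (SD, n = 3), so the parts of the Mmp14, Timp2 and Mmp2 activation complex were the most abundant. Timp1 followed at 1344 ± 147 and Mmp19 at 1274 ± 237, which did not differ beyond their spread. Mmp11 was at 294 ± 5.01, Mmp3 at 197 ± 28.8 and Timp3 at 145 ± 71.4, the last 2 overlapping, and Mmp9 at 54.9 ± 14.8 and Mmp13 at 23.9 ± 8.69. With rosiglitazone Mmp2, Timp2 and Mmp14 were still the highest, at 8053 ± 2285, 3899 ± 1199 and 2468 ± 387 per kilobase, and Timp1 and Mmp19 changed places.

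The combination was not told apart from its single compounds for any member in 3T3-L1 without the block. Against dicoumarol alone limma called 0 members and 0.0254% of all genes, while 4 members and 1273 of all genes had an unadjusted p under the threshold. With the replicate block limma called 3, Mmp3 (log2 fold change -1.20, adjusted p = 0.00048), Timp3 (-0.84, 0.0010) and Timp1 (-0.48, 0.0072), where 1.13% of all genes were called lower. Against magnolol alone limma called 0 members and 0% of all genes, with or without the block. Without the block 1 member and 336 of all genes had an unadjusted p under the threshold. The interaction of dicoumarol with magnolol was called for 0 members and 0% of all genes, and no member had an unadjusted p under the threshold. For Mmp3 the interaction was 0.25 (SE 0.37) on the log2 scale.

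Rosiglitazone went further than the combination for 5 members: Mmp2 (log2 fold change -0.75, limma adjusted p = 0.0080), Timp2 (-0.99, 0.0017), Mmp3 (-1.06, 0.012), Mmp14 (-0.48, 0.0081) and Mmp11 (-0.44, 0.019). Of all genes 8.78% were called lower and 18.3% were called. The Mmp11 call was lost without combination replicate 2 (0.075) or without rosiglitazone replicate 1 (0.10) or 3 (0.060), and the Mmp3 call without rosiglitazone replicate 1 (0.068). With only the compared groups in the fit the Mmp11 (0.082) and Mmp14 (0.052) calls were lost. Timp3 (-1.39, adjusted p = 0.092) and Mmp9 (-0.68, 0.17) were called only with the block (1.8e-06 and 0.020), which lowered 17.2% of all genes. Timp3 was also called without combination replicate 3 (0.049) or rosiglitazone replicate 2 (0.040). Mmp13, Mmp19 and Timp1 were not called.

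In DFAT cells the picture was different in size and in the genes involved. By limma, rosiglitazone changed 4 of the 6 members tested: MMP2, MMP14 and TIMP3 were lower and MMP19 was higher, where 5.02% and 5.8% of all genes were called lower and higher, 10.8% together. The combination raised 1 member, MMP19, where 6.11% of all genes were called higher and 10.2% were called. Dicoumarol and magnolol called 0 members each, beside 1.94% and 4.22% of all genes called. An unadjusted p under the threshold was held by 1 and 2 members, and by 1504 and 2476 of the 14819 genes tested. The median log2 fold change of the 6 members tested was -0.01 for dicoumarol, 0.07 for magnolol, -0.04 for the combination and -0.09 for rosiglitazone.

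MMP3, MMP9 and MMP13 were below the minimum in DFAT cells. MMP3 was listed at 0 in 14 of 15 DFAT libraries and at 0.975 normalized counts in the other, close to the value of 1 read. MMP9 reached at most 3.82 and MMP13 lay between 2.80 and 14.6. No comparison between systems was made for them.

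**Figure D3:**
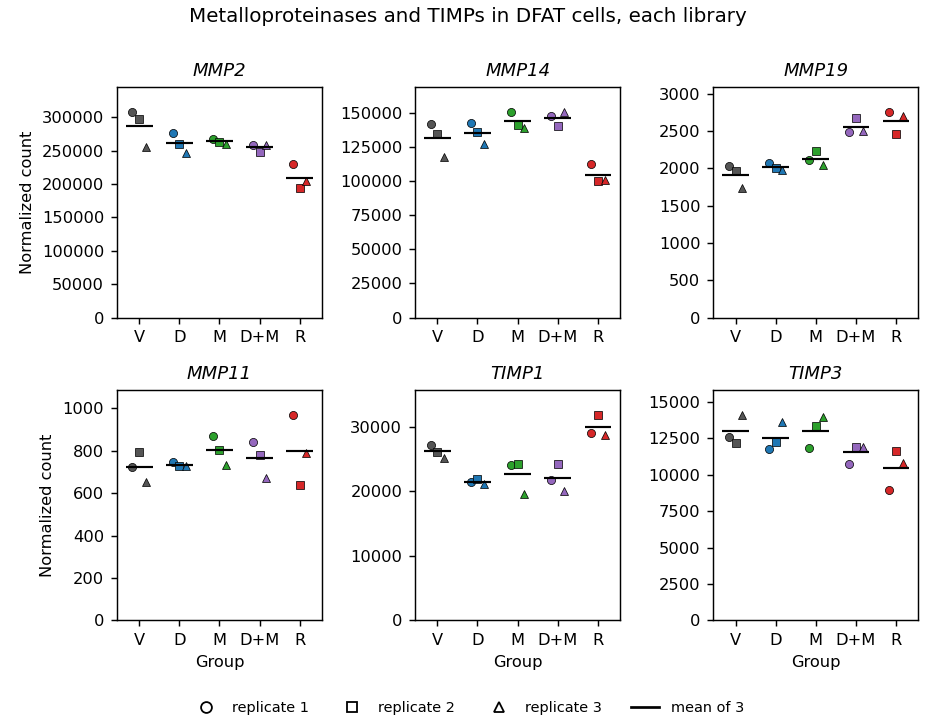
Normalized counts (y axis, from 0) of the 6 members tested in each of the 15 DFAT libraries, by group: vehicle (V), dicoumarol (D), magnolol (M), combination (D+M) and rosiglitazone (R), with the mean of 3 as a bar. All MMP19 values of the combination and rosiglitazone groups lie above the other 9 libraries, and the 3 rosiglitazone libraries are the lowest for MMP2 and MMP14.

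MMP19 (chromosome 5, 21280130 to 21285774, minus strand) was the member that rose in DFAT cells. It was at 2036, 1962 and 1743 normalized counts with vehicle, 2075, 2010.0 and 1981 with dicoumarol, 2118, 2226 and 2051 with magnolol, 2486, 2671 and 2506 with the combination and 2759, 2457 and 2703 with rosiglitazone. The combination and rosiglitazone libraries overlapped with each other and with no other group. The rise of MMP19 was 1.34-fold with the combination (log2 fold change 0.42, SE 0.07, limma adjusted p = 0.00042) and 1.38-fold with rosiglitazone (0.46, adjusted p = 0.00012). Against dicoumarol alone the combination was higher by 0.34 (adjusted p = 0.0093), beside 2.35% of all genes called and 2% called higher, a call lost without dicoumarol replicate 3 (0.054) or combination replicate 2 (0.053). Against magnolol alone the value was 0.26 and was not called (adjusted p = 0.11, with 0 members and 0.621% of all genes called). In that comparison the replicate numbers paired the libraries, and with the block the MMP19 difference was called (adjusted p = 0.033, where 1.02% of all genes were called higher). The interaction was not called for MMP19 (0.18, SE 0.09) or for any other member, beside 0.081% of all genes called. An unadjusted p under the threshold was held by 1 of the other members and by 582 of all genes.

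MMP2 (chromosome 6, 30058595 to 30086982, minus strand) ranked between 14 and 26 among all genes of the DFAT libraries. It was at 308115, 296942 and 254592 normalized counts with vehicle and at 230055, 193345 and 204262 with rosiglitazone, and the other 9 libraries lay between 245812 and 276729. Rosiglitazone lowered MMP2 by a log2 fold change of -0.45 (SE 0.10, limma adjusted p = 0.0038). Against the combination the value was -0.29 (adjusted p = 0.046), and this call was lost without any 1 of the combination libraries or rosiglitazone replicate 2 or 3 (adjusted p from 0.076 to 0.13). It was also lost with a pseudocount of 10 (0.053), without a filter on low genes (0.12) and with only the compared groups (0.17). Under quantile normalization that difference turned to 0.064 (adjusted p = 0.76), and MMP2 was called lower with magnolol (-0.49) and the combination (-0.46).

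MMP14 (chromosome 7, 76172971 to 76185928, minus strand) was at 142278, 134620.0 and 117600.0 normalized counts with vehicle, 147675, 140562 and 150553 with the combination and 112842, 100190.0 and 100959 with rosiglitazone. Only the rosiglitazone libraries lay apart from vehicle. The log2 fold change with rosiglitazone was -0.33 (SE 0.08, limma adjusted p = 0.018), which did not stay under the threshold without vehicle replicate 1 (0.099) or 2 (0.068) or rosiglitazone replicate 3 (0.075), or with only the compared groups (0.10). Against the combination it was -0.48 (adjusted p = 0.00066), where 17% of all genes were called, 8.79% lower and 8.24% higher. Under quantile normalization that MMP14 value was -0.23 (adjusted p = 0.058). MMP11 showed no called change in any DFAT comparison, with values from 0.02 to 0.15 against vehicle and libraries between 639 and 970.1.

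TIMP3 (chromosome 5, 12185818 to 12242581, minus strand) was at 12612, 12188 and 14133 normalized counts with vehicle and at 8931, 11618 and 10835 with rosiglitazone. The groups did not overlap, nor did the combination libraries, at 10765, 11913 and 11903, overlap with vehicle. With rosiglitazone the log2 fold change was -0.32 (SE 0.09, limma adjusted p = 0.036). The TIMP3 call was lost without vehicle replicate 1 (0.073) or 3 (0.14) or rosiglitazone replicate 1 (0.17) or 3 (0.057), without a filter on low genes (0.10), without a variance trend (0.087) and with only the compared groups (0.10).

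TIMP1 (chromosome X, 42102172 to 42106296, plus strand) lay on both sides of vehicle and was not called against it in the fit of all groups without the block. It was at 27260, 26057 and 25236 normalized counts with vehicle, 21379, 21853 and 21103 with dicoumarol, 24114, 24276 and 19608 with magnolol, 21815, 24267 and 20013 with the combination and 29073, 31909 and 28807 with rosiglitazone. All 4 treated groups lay apart from vehicle, the rosiglitazone libraries above it and the others below. The log2 fold changes were -0.29, -0.21, -0.25 and 0.19 (limma adjusted p = 0.11, 0.18, 0.065 and 0.18). With the replicate block all 4 were called (limma adjusted p = 0.0098, 0.036, 0.0082 and 0.040). The share of all DFAT genes called with the block in these comparisons is not given here, so nothing is read from these calls. The DFAT numbers paired these libraries only weakly, and for rosiglitazone not in all pairs. The dicoumarol value was called with only the compared groups in the fit (0.0096), and the combination value without combination replicate 2 (0.031). Replicate 3 held the least TIMP1 in all 5 groups, as did 6.86% of all genes tested. Groups without overlap were found for 19.3%, 21.9%, 28.9% and 21.4% of all genes in these comparisons. Between rosiglitazone and the combination TIMP1 differed by 0.44 (adjusted p = 0.0012). Pig TIMP1 lies within SYN1 on the opposite strand, which averaged 242 normalized counts against 24451 for TIMP1.

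The rosiglitazone responses of the 2 systems differed for 5 of the 6 members tested in both. The difference of the within-system log2 fold changes (3T3-L1 less DFAT) was -2.14 for TIMP3, -1.02 for MMP11, -0.95 for TIMP1, -0.54 for MMP14 and -0.53 for MMP2, so each was lower relative to vehicle in 3T3-L1 cells. This test covered 9368 shared symbols, of which 38.8% differed for rosiglitazone. MMP19 differed by -0.29 (adjusted p = 0.19, or 0.0073 with the replicate block, under which 50.5% of symbols differed). For the combination MMP14 (-0.55, adjusted p = 0.0076) and MMP11 (-0.54, 0.037) differed, beside 11.7% of all symbols. The MMP14 difference was lost with quantile normalization (-0.22, adjusted p = 0.31). The MMP11 difference was lost without a filter on low genes (0.054) and without any 1 of 9 libraries: all 3 vehicle libraries and combination replicates 1 and 3 of 3T3-L1, and vehicle replicates 1 and 3 and combination replicates 1 and 2 of DFAT (adjusted p from 0.056 to 0.10). For magnolol and for dicoumarol 0 members and 3.23% and 0.149% of symbols differed; MMP14 and MMP11 had an unadjusted p under the threshold with magnolol, 0.0056 and 0.029, and no member had with dicoumarol. With the replicate block MMP14 (-0.41, adjusted p = 0.0093) and TIMP3 (-0.64, 0.0027) differed with magnolol, where 10.7% of symbols did. With the combination the block added TIMP3 (-0.90, 3.4e-05), TIMP1 (-0.32, 0.035) and MMP19 (-0.28, 0.024), where 22.8% did. The block was fitted in both systems, although same-numbered DFAT libraries compared with vehicle deviated together only weakly or, with rosiglitazone, not in all pairs. The systems differ in species, culture and induction mix, which cannot be told apart here.

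With the members included, the mouse table held 18 MMP genes, of which 12 passed the minimum, and the pig table held 20, of which 11 did. Counts called in this and the following lists stand beside the shares of all genes called. In 3T3-L1 these were 40.1% with rosiglitazone, 19.9% lower, and 5.22% with the combination. In DFAT cells they were 10.8% with rosiglitazone and 10.2% with the combination. The lists were chosen with earlier results known, so nothing is read from their counts. Of 5 other MMPs tested in 3T3-L1, rosiglitazone lowered 3: Mmp8 (neutrophil collagenase, log2 fold change -1.79), Mmp27 (-0.69) and Mmp23 (-0.48). Mmp8 and Mmp27 are neighbours of Mmp3 on chromosome 9. Of 7 tested in DFAT cells the combination raised 4 and lowered 1. MMP17, an MMP tied to the membrane by a lipid anchor, rose with all 4 treatments (0.43, 0.88, 0.96 and 0.47 with dicoumarol, magnolol, the combination and rosiglitazone). MMP16, another membrane-type MMP, rose with magnolol (0.52) and the combination (0.71), and so did MMP15 (0.35 and 0.41), and MMP23B rose with the combination (0.41). MMP1, interstitial collagenase, fell with the combination (-1.51), from 22.8, 29.0 and 39.7 to 19.6, 5.21 and 8.92 normalized counts, and was the only gene of the chromosome 9 run of 8 in the pig table to pass the minimum. Counts this low limit the precision of the MMP1 value, which was not examined under the alternative settings.

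Among other inhibitors, Reck, a membrane-anchored inhibitor of Mmp2, Mmp9 and Mmp14, fell with rosiglitazone in 3T3-L1 (-1.37), from 1284, 1677 and 1298 to 372, 716 and 603 normalized counts. In DFAT cells RECK fell by 0.32 on the log2 scale with rosiglitazone and rose by 0.27 with the combination. Timp4 was not called in either system (0.32 in 3T3-L1 and -0.22 for TIMP4 in DFAT with rosiglitazone).

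The plasminogen system supplies plasmin, an activator of several proMMPs. The genes of this list named here are not all that were called. In 3T3-L1 Plau, the urokinase-type activator, fell by 2.65 on the log2 scale with rosiglitazone, from 153.2, 172 and 205 to 26.2, 29.4 and 25.9 normalized counts, and Plat, the tissue-type activator, fell by 1.75. Serpine2, an inhibitor of both activators, fell by 1.47 and Furin, the convertase that activates Mmp11 and Mmp14, by 0.61. The combination lowered Plau (-1.41), Plat (-1.07) and Serpine2 (-0.65) as well. Magnolol lowered Plau (-1.23) and Serpine2 (-0.57). In DFAT cells PLAT fell with all 4 treatments (-0.38, -0.33, -0.53 and -1.30). PLAU rose there with magnolol (0.44) and the combination (0.55), and SERPINE2 rose with rosiglitazone (0.95).

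Among surface partners, which dock MMPs or clear them, rosiglitazone lowered 5 of 8 in 3T3-L1: Lrp1, the endocytic receptor that removes MMPs and TIMPs (-1.06), Itgav (-0.98), the collagen receptor Ddr2 (-0.94), Itgb1 (-0.67) and Itgb3 (-0.64). In DFAT cells ITGB3 rose with all 4 treatments (0.86, 1.10, 1.38 and 0.77), and ITGAV rose with magnolol (0.59) and the combination (0.68). Of 10 ADAM proteases tested in 3T3-L1, rosiglitazone raised Adam12 (0.56) and Adam19 (0.42) and lowered Adam17 (-0.35) and Adam9 (-0.24). In DFAT cells ADAM12 rose with dicoumarol (0.30), magnolol (0.48) and the combination (0.63).

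The ADAMTS proteases are secreted relatives that cut proteoglycans and process procollagen. In 3T3-L1 rosiglitazone lowered 7 of 12 tested and raised 0, with Adamts2 (procollagen processing, -1.38) and Adamts1 (-1.22) lowest, and a median of -0.51. The combination lowered 1 of the 12 there, Adamts2 (-0.60). In DFAT cells magnolol raised 7 of 13, the combination 9 of 13 and dicoumarol 1, and none was lowered, with medians of 0.35, 0.67 and 0.21. Of all genes 4.22%, 10.2% and 1.94% were called there in either direction. ADAMTS14 rose by 0.92 with magnolol and 1.27 with the combination. With rosiglitazone 5 rose and 2 fell in DFAT cells, with a median of 0.04, and ADAMTS4, an aggrecanase, rose by 2.26, from 1694, 1538 and 990 to 9152, 6320 and 4908 normalized counts. Differences between the systems were not tested for this list.

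The matrix substrates hold proteins that MMPs are known to cut. In 3T3-L1 rosiglitazone lowered 11 of 24 and raised 2, with fibronectin (Fn1, -1.77), fibrillin-1 (Fbn1, -1.32) and decorin (Dcn, -1.21) lowest and Col6a3 (0.59) highest of those called. Of all genes 19.9% were called lower in that comparison. The combination lowered Dcn (-0.90) and Sparc (-0.35). In DFAT cells the combination raised 9 of 22 and lowered 1, with elastin (ELN) at 2.49 and DCN at -1.10. ELN rose from 44.8, 83.1 and 50.9 with vehicle to 269, 359 and 364 with the combination. Rosiglitazone in DFAT cells lowered 4 and raised 1, with DCN at -1.05 and COL6A3 at 0.61. The median of the substrates with rosiglitazone was -0.34 in 3T3-L1 and -0.15 in DFAT cells, and the difference between systems was not tested for this list. Of the 14 AP-1 and ETS factors tested, 2 families of transcription factors known to regulate MMP genes, rosiglitazone lowered 5 in 3T3-L1: Fosl2 (-1.26), Ets1 (-1.19), Etv1 (-1.16), Elk3 (-0.94) and Jun (-0.86). In DFAT cells ETV1 fell (-0.44) and ETS2 (0.59) and ELK3 (0.34) rose with rosiglitazone, and the combination lowered FOSB (-0.97), ELK3 (-0.44) and ETS2 (-0.38).

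**Figure D4:**
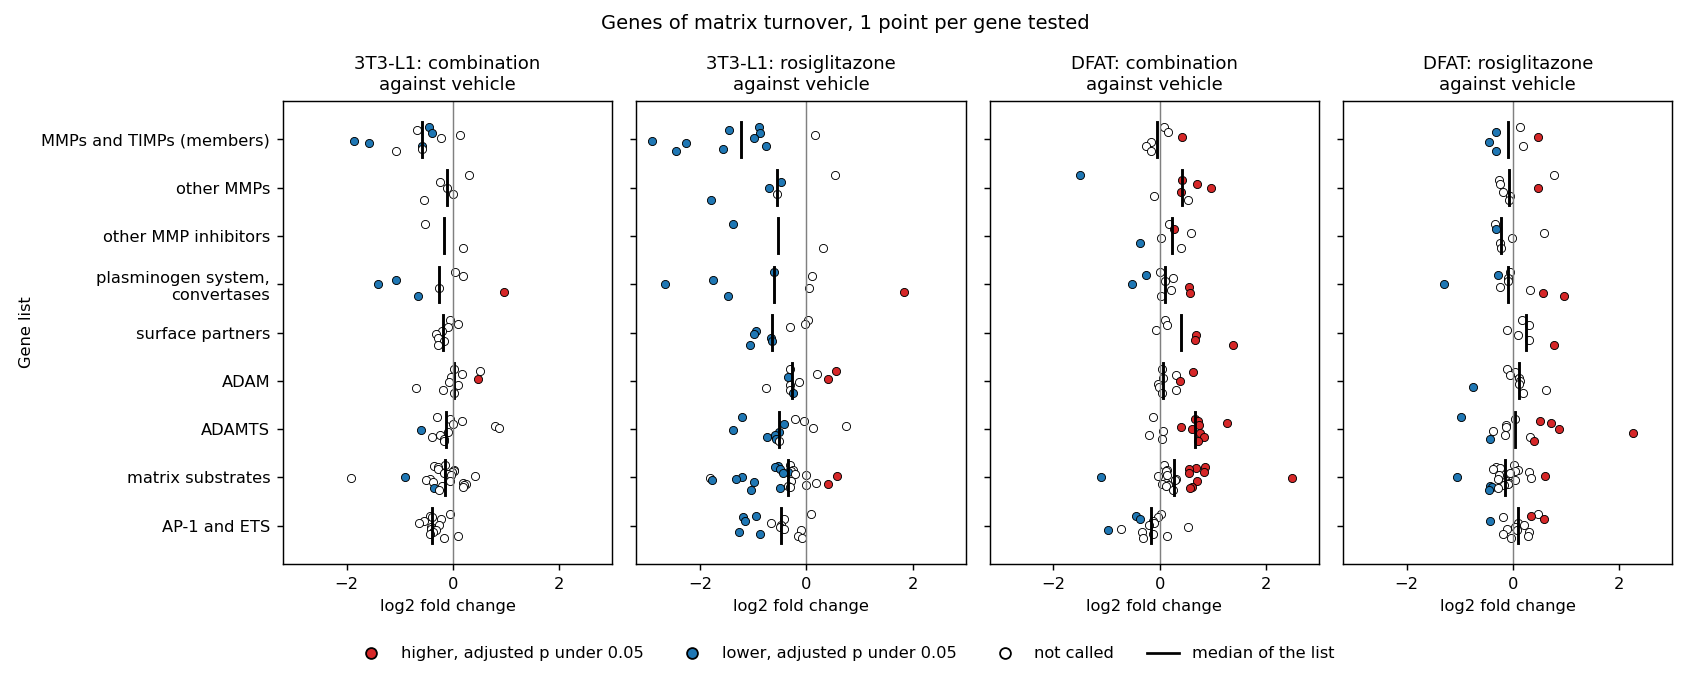
log2 fold changes (x axis) of each gene tested in the members and 8 related lists, for the combination and rosiglitazone in each system; red and blue points were called higher and lower, open points were not called, and the bar is the list's median. In 3T3-L1 with rosiglitazone the called points lie mainly left of 0, while in DFAT cells with the combination the ADAMTS list has 9 points called higher.

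Genes with the pattern most like that of a member were ranked by Pearson's r of log2 values over the 15 libraries of a table, a description that includes group differences and shared libraries. For Mmp3 they were Lbh (r = 0.97), Cmtm3 (0.97) and Ctsl (0.97), and for Timp3 Emp2 (0.98), Hhat (0.98) and Adgrl2 (0.97), among 11568 eligible genes. For pig MMP19 they were RETSAT (0.96), TMEM120B (0.96) and TRARG1 (0.95), and for TIMP3 AKAP7 (0.93), DNAJC3 (0.91) and ZC3HAV1 (0.90), among 9926. Adipoq, the adiponectin gene and a marker of differentiated fat cells, was at 794, 187 and 379 normalized counts in the 3 vehicle libraries of 3T3-L1 and at 20741, 7971 and 12776 with rosiglitazone. Replicate 2 had the least Adipoq in all 5 groups and the most Mmp2, Mmp3, Mmp14, Timp2 and Timp3 in all 5 groups. The share of all genes with replicate 2 highest in all groups is not given here. Whether the Adipoq and member values are linked was not tested.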

How the data were processed

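Poly(A) RNA libraries that mark strand were sequenced from 30 samples, 3 in each of 10 groups. The values are size-factor normalized counts, used here as a signal per gene: per the file headers and the submitters' processing notes, the authors deposited 1 table per system normalized with DESeq2, after bcl2fastq 2.19.1.403 and STAR. The notes name GRCm38, but the mouse coordinates printed here are the deposited table's own and only 2.18% of gene starts equalled those of GENCODE M21 on GRCm38, so promoter positions and table positions belong to different builds. For the pig build, the annotation and the counter the entry is: not given in the sources used here. Low values were whole multiples of 1 read for 81.0% to 82.2% (3T3-L1) and 89.6% to 90.8% (DFAT), within 0.02, so whole reads were not recovered and no count model was used.

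Values were tested as log2(value + 1) with limma 3.58.1 (R 4.3.3), with variance trend, over genes with a mean of at least 10, all 5 groups of a table in 1 fit and Benjamini-Hochberg adjustment over all genes at 0.05. Differences between systems compared the within-table log2 fold changes over 9368 shared symbols, with their summed squared errors. The code was tested on simulated data. Exonic lengths came from GENCODE M21 and promoters from RefSeq. Same-numbered 3T3-L1 libraries of different groups deviated together (30 pairs, r from 0.11 to 0.46, median 0.30; 60 pairs of different numbers had a median of -0.14), so the numbers were taken to pair them. Same-numbered DFAT libraries did so most for the combination against magnolol (0.12 to 0.35) and rosiglitazone against the combination (0.11 to 0.29). Against vehicle the pairs were positive but weaker for dicoumarol (0.075 to 0.19), magnolol (0.005 to 0.21) and the combination (0.03 to 0.17). For rosiglitazone against vehicle (-0.31 to 0.08) and the combination against dicoumarol (-0.02 to 0.09) they were not all positive. Members and lists were chosen with earlier results of these data known. Named genes are the members, called genes of the fixed lists, and for 1 protease and 1 inhibitor per table the 3 genes of most similar pattern. Markers were fixed as lists too. One gene of the plasminogen list is not reported here. Alternatives are given in the closing section.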

Additional observations from a re-analysis of the deposited data

Results flagged for a closer look

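For 7 values the response against vehicle differed between 3T3-L1 and DFAT cells by a test of the difference itself, adjusted over all shared symbols. Of 9368 shared symbols 38.8% differed with rosiglitazone and 11.7% with the combination. Values are 3T3-L1 less DFAT log2 fold changes. With rosiglitazone TIMP3 differed by -2.14 (95% interval -3.34 to -0.95), MMP11 by -1.02 (-1.37 to -0.67), TIMP1 by -0.95 (-1.28 to -0.62), MMP14 by -0.54 (-0.82 to -0.26) and MMP2 by -0.53 (-0.93 to -0.13). With the combination MMP14 differed by -0.55 (-0.83 to -0.27) and MMP11 by -0.54 (-0.88 to -0.19). That MMP14 difference was lost with quantile normalization (-0.22, adjusted p = 0.31). The MMP11 difference with the combination was lost without a filter on low genes (0.054) and in several fits without 1 library (0.056 to 0.10). TIMP1 was lower than vehicle in 3 of 3 rosiglitazone libraries of 3T3-L1 and higher in 3 of 3 of DFAT cells. The MMP2 difference was lost without 3T3-L1 vehicle replicate 2 (adjusted p = 0.12), 3T3-L1 rosiglitazone replicate 1 (0.17) or 3 (0.068), DFAT vehicle replicate 3 (0.073) or DFAT rosiglitazone replicate 1 (0.067). Species, culture conditions and induction mix cannot be told apart in these differences.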

How the results depend on the processing

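Alternatives were a pseudocount of 0.5 or 10, no filter on low genes, a minimum mean of 50, quantile or upper-quartile scaling, no variance trend, only the compared groups, the replicate block and leaving out each library in turn. Of 1144 log2 fold changes under alternatives other than leaving out a library, 1106 kept their side of the threshold, 16 lost and 21 gained a call, and 1 reversed: MMP2 in DFAT cells, rosiglitazone against the combination, at 0.064 with quantile normalization. Leaving out 1 library kept 825 of 864. Members called with the replicate block numbered 4 for magnolol and 3 for the combination against dicoumarol in 3T3-L1. Of all genes 1.44% and 1.13% were called lower with the block there. In DFAT cells the block gave 1 for the combination against magnolol, where 1.02% of all genes were called higher. It gave 1 for dicoumarol, 1 for magnolol and 2 for the combination against vehicle. In these 3, where same-numbered libraries deviated together only weakly, the added gene was TIMP1 (limma adjusted p = 0.0098, 0.036 and 0.0082). With rosiglitazone, where the pairs were not all positive, TIMP1 was also called with the block (0.040). For the difference between systems the block gave 2 with magnolol and 5 with the combination, where 10.7% and 22.8% of symbols differed. The block changed the count in no other comparison by more than 1.5 times. With quantile normalization DFAT calls were 1 for magnolol, 2 for the combination and 1 for rosiglitazone against the combination, and the combination differed between systems for 1 member, as it did without a filter on low genes. Without a variance trend the combination had 2 calls in 3T3-L1. With only the compared groups there were 3 for rosiglitazone against the combination in 3T3-L1, and in DFAT cells 1 for dicoumarol and 2 for rosiglitazone. Leaving out 1 library gave 0 to 1 calls for magnolol, 1 to 5 for the combination, 8 to 9 for rosiglitazone and 3 to 6 for rosiglitazone against the combination in 3T3-L1. In DFAT cells it gave 1 to 2 for the combination, 2 to 4 for rosiglitazone, 0 to 1 for the combination against dicoumarol and 2 to 3 for rosiglitazone against the combination. Between systems it gave 1 to 2 with the combination and 4 to 5 with rosiglitazone. Where no share of all genes called under the same setting is given, nothing is read from these counts. The cause of these moves was not tested. Low values limit Mmp13 in 3T3-L1 and MMP1, MMP3, MMP9 and MMP13 in DFAT cells.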

Other observations

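Contractile genes were listed as markers of muscle-like cells. In DFAT cells MYH11, a smooth muscle myosin, rose with dicoumarol (log2 fold change 0.71), magnolol (1.36), the combination (1.79) and rosiglitazone (0.45), and ACTA2, smooth muscle actin, rose with magnolol (0.61), the combination (0.86) and rosiglitazone (0.72). DES, the muscle intermediate filament gene desmin, rose with the combination (1.81). In 3T3-L1 cells Acta2 fell with the combination (-1.07) and rosiglitazone (-1.15) and Tagln, an actin-binding protein of smooth muscle, fell with rosiglitazone (-0.86), whereas Myh11 rose with it (1.39). The difference between systems was not tested for these genes.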
